A study of Drosophila melanogaster with 12 samples.

Results

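The chemosensory receptor genes of Drosophila melanogaster were examined in eye discs of larvae in the third instar. A gene was taken as a member when its symbol in the array's probe-to-gene table began with Gr, Or or Ir followed by a digit, and of a gene's probe sets the 1 with the highest mean over the 12 arrays stood for it. The rule gave 165 of the 11982 named genes, of which 56 were gustatory receptor (Gr) genes, 56 were odorant receptor (Or) genes and 53 were ionotropic receptor (Ir) genes. By chromosome arm, 31 lay on 2L, 45 on 2R, 28 on 3L, 40 on 3R and 21 on X.

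Gustatory and odorant receptors are membrane proteins that form ligand-gated ion channels, and ionotropic receptors are relatives of the glutamate-gated channels of synapses. Each sensory neuron of the taste hairs, antenna or maxillary palp expresses a small set of them, usually an odour- or taste-specific receptor together with a shared co-receptor such as Orco for the Or family or Ir25a, Ir8a and Ir76b for the Ir family. The eye disc is the larval epithelium that gives rise to the compound eye, and in the larva it is joined to the antennal disc, from which the adult antenna and palp develop. Neurons of the adult antenna switch on their receptors during pupal life, after the stage sampled here.

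The study compared 4 genotypes with 3 arrays each, and every value below is a log2 signal from the authors' table. The Canton S strain served as wild type. Mutant groups carried rbf120a, in which Rbf, the fly counterpart of the retinoblastoma gene and a restraint on E2F transcription factors, is mutated; wtsX1Lats, an allele of warts (wts), the Lats kinase of the growth-restraining Hippo pathway; or both, rbf120a wtsX1Lats, called the double mutant here. The design text describes mosaic discs in which mutant tissue made up the greater part because it outgrew wild-type tissue, so a minority of wild-type cells remained. Whether Canton S discs were mosaic, and the sex and number of larvae behind each array, are not given, so allele, strain background and mosaic procedure cannot be told apart in comparisons with Canton S.

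The arrays were checked for tissue and quality before the receptor genes were read. By the mean over 12 arrays, all 11 eye disc markers and 8 of 9 antennal disc markers stood above the background bound defined below. The exception, bab1, was below it in every array. None of 10 testis markers was above it by that mean. However, twe had group means above it in rbf120a (6.56) and the double mutant (6.45), and passed it in single arrays of Canton S (6.66) and wtsX1Lats (6.43). The other testis markers were below it in every array. Against Canton S, gl, sev, ro and sens of the eye disc list fell past the test described below in 2 mutant groups. Their changes were -1.60 to -1.08 in wtsX1Lats and -1.55 to -0.91 in the double mutant. Optix rose in both and ey in the double mutant, and no eye disc marker passed in rbf120a. Of all 11982 genes, 205, 399 and 391 fell past this test in rbf120a, wtsX1Lats and the double mutant. The summed linear level of the antennal markers ran from 8149 to 8609 on Canton S arrays, 7284 to 7626 for rbf120a, 4955 to 8932 for wtsX1Lats and 5712 to 6399 for the double mutant. That of 6 measured neuron markers was 3127 to 3408, 2347 to 2760, 759 to 1662 and 1170 to 1762 in the same order, with ChAT and VGlut below the bound in every array. Of the neuron markers, 2 fell past the test in each of wtsX1Lats and the double mutant, and of the antennal markers 2 did in wtsX1Lats. For 6 glia and neuroblast markers the sums were 3943 to 4312, 3619 to 4028, 2734 to 3459 and 2457 to 2850, with ase and wor below the bound in every array, and 0, 3 and 4 of the 6 fell against Canton S in rbf120a, wtsX1Lats and the double mutant. Of 9 blood cell markers, 7 stood above the bound, with sums of 4161 to 8332, 2311 to 2685, 2784 to 4628 and 2300 to 3472, and 5, 3 and 4 of them fell, in the same order. Of 3 measured muscle markers, 2 stood above the bound, Mlc1 at 12.73 and the gene up at 10.37 over 12 arrays. Act79B was below it in every array. The muscle sums were 5415 to 12802, 9258 to 10467, 5187 to 15005 and 6339 to 7732 in the same order, and no muscle marker passed the test. The part of these cell types in the receptor values was not tested. Neither targeted gene fell past the test: the change of Rbf in rbf120a was -0.29 ± 0.26 (SE; adjusted p = 0.812), and that of wts in wtsX1Lats was -0.25 ± 0.22 (adjusted p = 0.59). The array of wtsX1Lats replicate 3 had larger differences between 3′ and 5′ control probes (1.70 for actin against at most 0.82 in any other array), which is a sign of RNA quality.

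Nearly all receptor genes sat at the level of genes not known from discs. Over the 12 arrays the mean signal of the 165 genes ran from 4.03 to 8.35 with a median of 4.62, against a median of 7.44 for all 11982 genes. The medians were 4.63 for Gr, 4.60 for Or and 4.66 for Ir genes, so no family stood higher as a whole. As a yardstick, 34 genes of adult reproductive tissue (seminal proteins, eggshell proteins and yolk proteins) gave a median of 4.61, and their 95th percentile, 6.27, was taken as the background bound. It is a convention and not a detection call, since probe sets differ in their own background and a signal below it does not show that a gene is silent.

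Of the 165 receptor genes, 2 had a mean above the bound (1.21%), compared with 57.2% of all genes. They were Ir76a at 8.35 and Gr61a at 6.71. In Canton S, 1 receptor gene, Ir76a, had a group mean above the bound, against 57.4% of all genes. In each mutant group the count was 3, made up of Gr61a, Gr64a and Ir76a, against 57.5% of all genes for rbf120a, 57.0% for wtsX1Lats and 56.8% for the double mutant. The bound of 6.27 rests on leaving out 3 reference symbols after they were seen. With them it is 6.96, at which Gr64a falls below it in every mutant group, so that 2 receptor genes (Gr61a and Ir76a) are above it there, and 1, Ir76a, by the mean over 12 arrays. Across single arrays at 6.27, Ir76a passed the bound in 12, Gr61a in 9, Gr64a in 8, Ir68a in 2 and Gr64f in 1, and no other receptor gene passed it in any array. Between 1 and 4 receptor genes were above it per array.

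**Figure D1:**
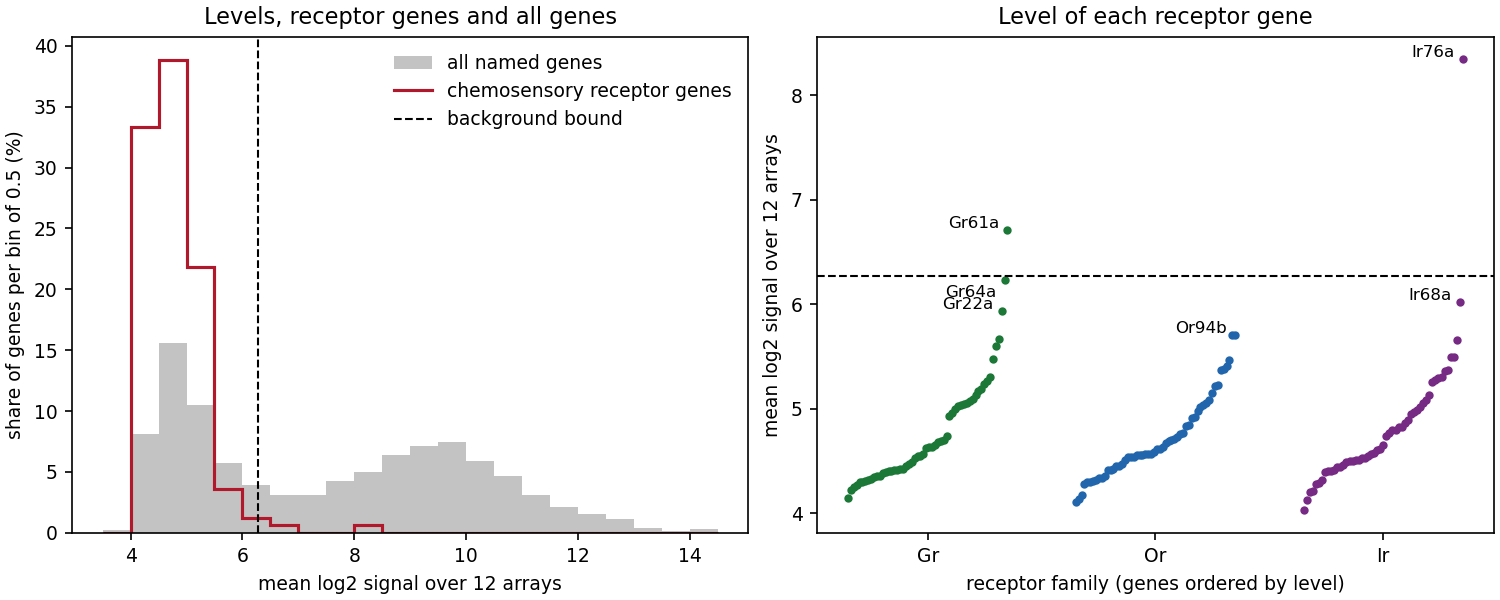
The left panel plots the share of genes (%) in bins of 0.5 of the mean log2 signal over 12 arrays, for all 11982 genes in grey and the 165 receptor genes in red; the right panel plots each receptor gene's mean log2 signal by family, ordered by level. The dashed line is the background bound of 6.27, and Ir76a at 8.35 and Gr61a at 6.71 are the points above it.

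Just below the bound came Gr64a, with a mean of 6.23, then Ir68a, a receptor needed for moist-air sensing, at 6.02, and Gr22a at 5.93. The next were Or94b at 5.71, Or94a at 5.70, Gr77a at 5.67, Ir64a, an acid-sensing receptor, at 5.65, Gr39a at 5.6 and Ir8a at 5.50. Ir67b at 5.49, Gr64f at 5.48, Or43b at 5.47 and Or47b at 5.41 completed the 15 highest. Adjacent genes in this order differed by a few hundredths in most steps, and levels of different probe sets are not on a common scale, so the order carries no ranking of RNA amounts. The lowest member was Ir67a at 4.03.

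Ir68a read 6.11, 6.28 and 6.04 on the Canton S arrays, 5.83, 5.84 and 6.04 on those of rbf120a, 5.90, 5.92 and 6.39 on those of wtsX1Lats and 5.93, 5.99 and 5.99 on double mutant arrays. The arrays above the bound were thus Canton S replicate 2 and wtsX1Lats replicate 3, the array with the large 3′ to 5′ differences. The groups overlapped, and the changes against Canton S were -0.24, -0.08 and -0.17 (SE 0.14) with adjusted p of 0.563, 0.82 and 0.661 in the limma test.

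The question behind the genotype comparison is which genes change when Rbf, warts or both are mutated. A single limma fit over all genes and 12 arrays was used, and a gene was called when its p, adjusted by Benjamini-Hochberg over 11982 genes, was under 0.05. Against Canton S, 3 of the 165 receptor genes were called in rbf120a (1.82%; 3.51% of all genes were called there), 2 in wtsX1Lats (1.21%; 5.61% of all genes) and 2 in the double mutant (1.21%; 5.49% of all genes). All of these calls were rises. Gr61a and Gr64a were called in each mutant group, and Or47a in rbf120a. The shares called among receptor genes were below those among all genes, a difference that was not tested. By the mean over 12 arrays, 1.21% of receptor genes but 57.2% of all genes stood above the bound, so the sets differ in level. The median change of the receptor genes was -0.001, 0.03 and 0.004 in the 3 comparisons, beside 0.0002, 0.02 and 0.002 for all genes.

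**Figure D2:**
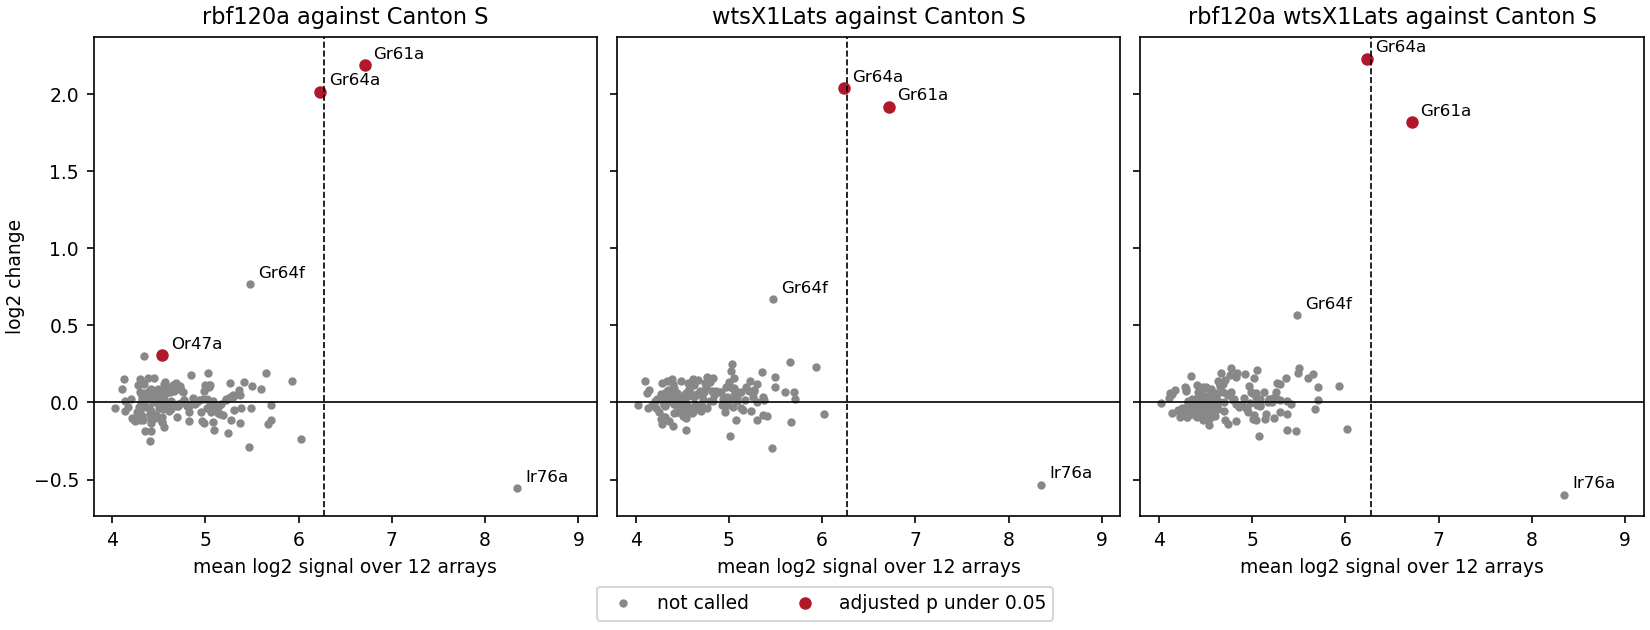
Each panel plots the log2 change of the 165 receptor genes against Canton S (y axis) over their mean log2 signal in 12 arrays (x axis) for a mutant genotype; red points were called at an adjusted p under 0.05 and the dashed line is the background bound of 6.27. Gr61a and Gr64a lie between 1.82 and 2.23 in all panels, Gr64f between 0.57 and 0.77 and Ir76a between -0.60 and -0.53, with the others within 0.31 of 0.

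Gr61a and Gr64a belong to the sweet-taste group of gustatory receptors, which detect sugars in taste neurons of the legs and labellum. Gr61a, on arm 3L, is known for responses to glucose. It read 5.12, 5.06 and 5.51 on the Canton S arrays, 7.23, 7.45 and 7.58 on those of rbf120a, 7.02, 6.69 and 7.74 on those of wtsX1Lats and 7.02, 7.04 and 7.09 on double mutant arrays. All 9 mutant arrays were above all 3 Canton S arrays by more than the whole spread of either side, and the Canton S arrays were below the bound while the mutant arrays were above it.

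The group means of Gr61a came to 5.23 ± 0.24 (SD, n = 3) for Canton S, 7.42 ± 0.18 for rbf120a, 7.15 ± 0.54 for wtsX1Lats and 7.05 ± 0.03 for the double mutant. The rise was 2.19 on the log2 scale in rbf120a (SE 0.225; limma, adjusted p = 0.000235). It was 1.92 in wtsX1Lats (adjusted p = 0.000523) and 1.82 in the double mutant (adjusted p = 0.000662). The wide spread in wtsX1Lats came from replicate 3, and without that array the rise was 1.62 (adjusted p = 0.000307). Array signals are compressed near background, where the Canton S levels of Gr61a and Gr64a lay, so for both genes the log2 changes are changes of signal and do not give the fold in RNA. Set against the bound of 6.27 in place of Canton S, the signal of Gr61a was 2.21-fold, 1.84-fold and 1.71-fold higher in the 3 mutant groups. These values depend on where the bound is set. In whole discs, more expressing cells and more RNA per cell cannot be told apart.

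Gr64a, also on 3L and known for responses to sucrose and maltose, read 4.52, 4.49 and 4.97 in Canton S. On the rbf120a arrays it read 7.02, 6.14 and 6.88, on the wtsX1Lats arrays 6.73, 6.81 and 6.57, and on double mutant arrays 6.99, 6.68 and 7.0. Again every mutant array was above every Canton S array, and rbf120a replicate 2 was the mutant array that stayed below the bound.

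The group means of Gr64a were 4.66 ± 0.27 (SD, n = 3), 6.68 ± 0.47, 6.70 ± 0.12 and 6.89 ± 0.18 in the order Canton S, rbf120a, wtsX1Lats and double mutant. The rises were 2.02 (adjusted p = 0.000291), 2.04 (adjusted p = 0.000229) and 2.23 (adjusted p = 0.000101) with an SE of 0.21, in limma. Set against the same bound of 6.27, the signal was 1.32-fold, 1.35-fold and 1.54-fold higher. With the bound of 6.96, all 3 mutant means lie below it, so these values are no minimum. Without wtsX1Lats replicate 3 the rise in wtsX1Lats was 2.11 (adjusted p = 0.000634).

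The mutant groups were also compared with each other. No receptor gene was called between the double mutant and rbf120a (0.676% of all genes called; 6 receptor genes and 8.38% of all genes had an unadjusted p under 0.05), between the double mutant and wtsX1Lats (0.00% of all genes; 3 receptor genes and 8.62% of all genes unadjusted), or between wtsX1Lats and rbf120a (1.00% of all genes; 13 receptor genes and 14.7% of all genes unadjusted), in limma. For Gr61a the difference was -0.37 ± 0.225 (SE; adjusted p = 0.791) between the double mutant and rbf120a and -0.27 (adjusted p = 0.618) between wtsX1Lats and rbf120a. For Gr64a the largest of the 3 differences was 0.21 ± 0.21 (adjusted p = 0.95). Thus Canton S was the low group for both genes, and the order among the mutant groups was not resolved beyond the spread of the arrays.

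The interaction term asks whether the double mutant equals the sum of the single changes. It was called for 2 of the 165 receptor genes (1.21%; 0.893% of all genes). In Gr61a the change with both alleles was lower than the sum of the single changes, with an interaction of -2.29 ± 0.32 (SE; limma, adjusted p = 0.00524). In Gr64a it was -1.83 ± 0.30 (adjusted p = 0.0173). The Gr64a call was lost without Canton S replicate 1 (adjusted p = 0.0617) and without double mutant replicate 2 (adjusted p = 0.0554). All 3 mutant changes enter this term against the same Canton S arrays, so similar rises in all 3 groups give a negative term by themselves.

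Gr64a is the first of 6 adjacent sugar receptor genes, Gr64a to Gr64f, on arm 3L. Gr64f, a co-receptor needed for responses to many sugars, has a probe set of its own, while Gr64b to Gr64e are read by probe sets that list a pair of genes. Gr64f read 4.84, 4.96 and 5.13 on the Canton S arrays, 6.38, 5.07 and 5.79 on those of rbf120a, 5.71, 5.58 and 5.64 on those of wtsX1Lats and 5.82, 5.34 and 5.46 on double mutant arrays. Its value in rbf120a replicate 2 lay within the Canton S range, and the other 8 mutant arrays were above it. The changes of 0.77, 0.67 and 0.57 (SE 0.25) did not pass the test (limma, adjusted p = 0.152, 0.142 and 0.275). Without rbf120a replicate 2 they were 1.11 (adjusted p = 0.00899), 0.67 (adjusted p = 0.0412) and 0.57 (adjusted p = 0.0795).

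The shared probe sets were tested in a second limma fit over all 18952 probe sets, in which 2.94% were called for rbf120a, 4.05% for wtsX1Lats and 4.02% for the double mutant, each against Canton S. The probe set of Gr64d and Gr64e, the latter a receptor for glycerol, read 5.34, 5.01 and 5.21 on the Canton S arrays, 6.57, 5.66 and 6.60 on those of rbf120a, 6.11, 6.18 and 6.33 on those of wtsX1Lats and 6.20, 5.91 and 6.31 on double mutant arrays. All mutant arrays exceeded the Canton S arrays. It rose by 1.09 (adjusted p = 0.016), 1.02 (adjusted p = 0.0195) and 0.95 (adjusted p = 0.0274), with an SE of 0.22.

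Of the pair of probe sets listing Gr64b and Gr64c, the brighter read 4.38, 4.52 and 4.99 on the Canton S arrays, 7.37, 5.63 and 6.57 on those of rbf120a, 6.17, 6.34 and 5.66 on those of wtsX1Lats and 6.34, 5.68 and 6.10 on double mutant arrays. It rose by 1.89, 1.43 and 1.41 (SE 0.35; limma, adjusted p = 0.0116, 0.0438 and 0.0466), again without overlap between mutant and Canton S arrays. The other probe set of the same genes stayed between 4.79 and 5.28, with changes of 0.24, 0.07 and 0.26 that were not called (adjusted p = 0.423, 0.817 and 0.286). Both probe sets name the same genes, so which of their transcripts each reads was not tested. Leaving out single arrays ended the call of the brighter set in 1 of 12 cases in rbf120a and in 9 of 12 in each of wtsX1Lats and the double mutant, with adjusted p up to 0.176. For Gr64d and Gr64e it did so in 3, 1 and 5 of 12 cases, with adjusted p up to 0.129.

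Within the rbf120a group, replicate 2 gave the lowest value for Gr64a, for the brighter Gr64b and Gr64c set, for Gr64d and Gr64e and for Gr64f. Gr61a, which lies elsewhere on 3L, did not follow, and its value in that array was the middle of the group.

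**Figure D3:**
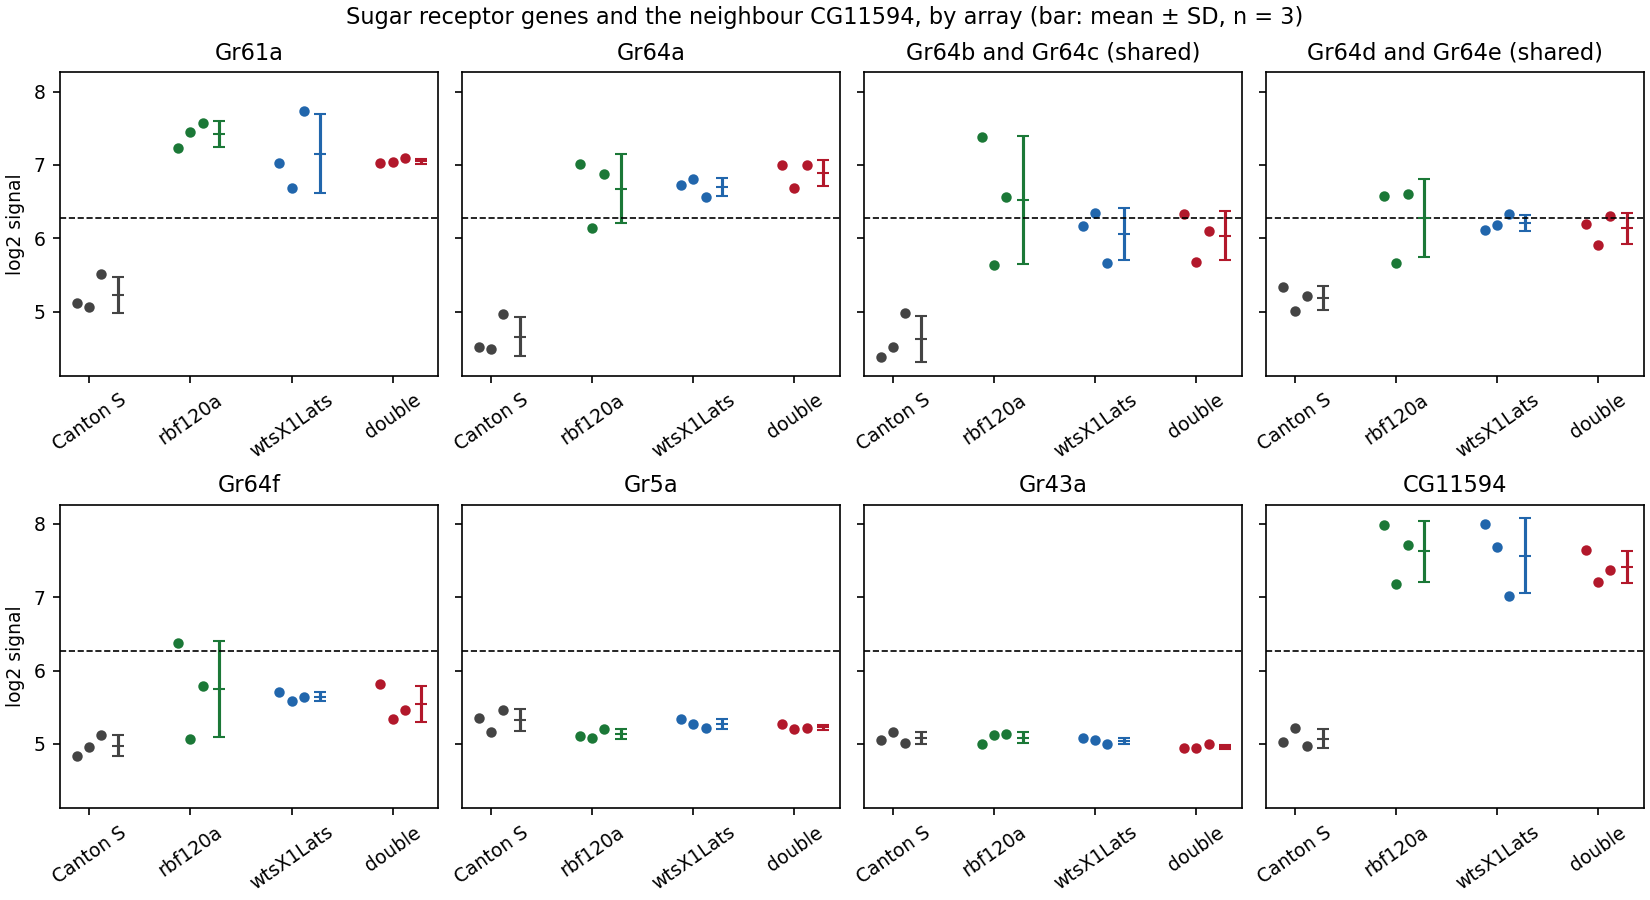
Each panel plots the log2 signal in every array of a sugar receptor probe set or of the neighbouring gene CG11594, with points for the 3 arrays of a genotype and a bar for their mean ± SD; the dashed line is the background bound of 6.27. The panel for Gr64b and Gr64c shows the brighter of their probe sets. In Gr61a, Gr64a, both shared sets and CG11594 all 9 mutant arrays are above the 3 Canton S arrays, while Gr5a and Gr43a stay between 4.94 and 5.47.

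The other sugar receptors measured alone were Gr5a, the trehalose receptor on the X, and Gr43a, a fructose receptor that also acts inside the brain, on 2R. Over the 4 groups, in the order used above, Gr5a averaged 5.33 ± 0.15 (SD, n = 3), 5.13 ± 0.07, 5.27 ± 0.06 and 5.23 ± 0.04, and Gr43a averaged 5.08 ± 0.08, 5.09 ± 0.08, 5.05 ± 0.04 and 4.96 ± 0.03. Their changes against Canton S lay between -0.20 and 0.01 and none was called (limma, adjusted p from 0.351 to 0.992). So of the 9 sugar receptor genes, 5 were measured alone and 2 of these, Gr61a and Gr64a, were called in each mutant group. Of all genes, 3.51%, 5.61% and 5.49% were called in rbf120a, wtsX1Lats and the double mutant. The list was chosen with earlier results of these data known, so the count carries no test of the group. The medians over the 5 were 0.77, 0.67 and 0.57, which are the changes of Gr64f, a gene that was not called.

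Genes next to the called receptors were read from the gene table. Of the 6 measured neighbours of Gr61a (3 on each side), none was called against Canton S in any mutant group in limma, and their changes lay between -0.29 and 0.42. At the Gr64 cluster the gene immediately before Gr64a, CG11594, rose with it. CG11594 read 5.02, 5.22 and 4.98 on the Canton S arrays, 7.99, 7.18 and 7.71 on those of rbf120a, 8.0, 7.69 and 7.01 on those of wtsX1Lats and 7.64, 7.21 and 7.37 on double mutant arrays. Its rises were 2.55, 2.49 and 2.33 (SE 0.25; adjusted p = 0.000172, 0.000173 and 0.000245).

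On the far side of CG11594, Mul1 changed by 0.23, 0.30 and 0.15 and FoxL1 by 0.06, -0.04 and -0.02, and beyond Gr64f, CG11593 changed by 0.37, 0.19 and 0.25 and Rcd5 by 0.14, 0.31 and 0.19. None of these 4 genes was called (limma, adjusted p from 0.0642 to 0.959). Among the probe sets tested, the rise at this place therefore took in CG11594, Gr64a, the brighter set of Gr64b and Gr64c and the set of Gr64d and Gr64e. The calls of these shared sets were lost when some single arrays were left out. The dimmer set of Gr64b and Gr64c and the set of Gr64f were not called. All of these sets had Canton S means below the bound, so the sizes of their changes cannot be ranked against each other.

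**Figure D4:**
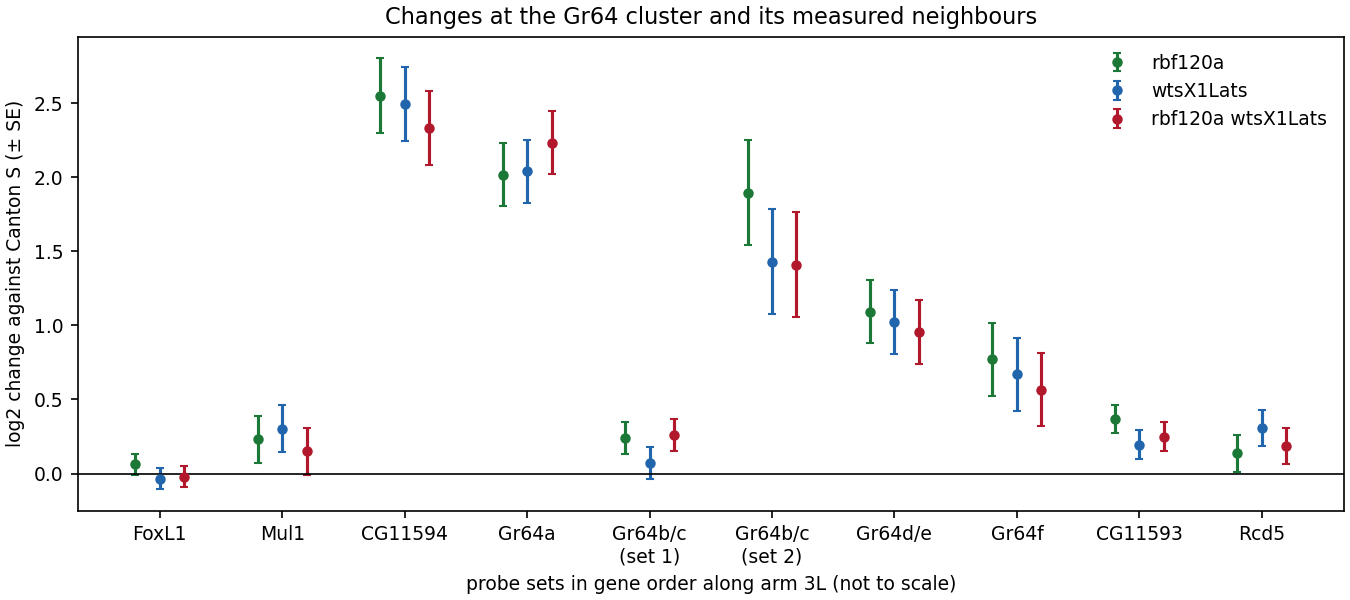
The log2 change against Canton S (± SE) is plotted for the probe sets of the Gr64 cluster and the genes measured on either side, in gene order along arm 3L and not to scale; colours mark the mutant genotypes. Changes run from 2.33 to 2.55 in CG11594, 2.02 to 2.23 in Gr64a and 0.57 to 0.77 in Gr64f, with the dimmer Gr64b and Gr64c set (set 1) at 0.07 to 0.26 and the flanking genes Mul1, FoxL1, CG11593 and Rcd5 at or below 0.37.

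Ir76a, an olfactory receptor of antennal neurons that senses amines together with Ir25a and Ir76b, was the brightest member. It read 8.73, 8.99 and 8.59 on the Canton S arrays, 8.45, 7.99 and 8.19 on those of rbf120a, 8.39, 8.24 and 8.08 on those of wtsX1Lats and 8.31, 7.91 and 8.29 on double mutant arrays. Every mutant array was below every Canton S array. The changes were -0.56, -0.53 and -0.60 (SE 0.17) and did not pass the test (limma, adjusted p = 0.113, 0.088 and 0.0609). The fall in the double mutant passed the test in 7 of 22 alternative analyses, with adjusted p down to 0.00636, and those without wtsX1Lats replicate 1 (adjusted p = 0.0404) or replicate 3 (adjusted p = 0.0423) were among them. In rbf120a and in wtsX1Lats it passed in 1 of 22 each, under array weights (adjusted p = 0.0184 and 0.0307).

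The level of Ir76a stood apart from that of its partners. Ir25a and Ir76b had means over 12 arrays of 5.01 and 5.08, below the bound. In the gene table Ir76a overlaps CG14102, whose own probe set had a mean of 7.76 and changes of -0.20, -0.29 and -0.28 (adjusted p = 0.695, 0.255 and 0.346), and the files do not say whether the probe set of Ir76a can read transcripts of both. The signal of 8.35 can thus not be assigned to Ir76a RNA alone. The next gene on the other side, TORIP, rose by 0.35, 0.43 and 0.45 (adjusted p = 0.0183, 0.00416 and 0.00289).

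Gr59b and Gr59c, neighbours by name on 2R, were the other members with every mutant array below every Canton S array. Gr59b ran from 5.17 to 5.20 in Canton S and from 4.94 to 5.17 in the mutant arrays, and Gr59c from 4.40 to 4.49 and from 4.17 to 4.40, so both gaps were smaller than 0.05 and neither gene was called in limma. In all, 3 of 165 receptor genes were below in this way (1.82%; 3.41% of all genes) and 2, Gr61a and Gr64a, were above (1.21%; 3.79% of all genes).

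The remaining calls concerned odorant receptors at background. Or47a, on 2R, is a receptor for fruit esters used by adults and larvae. It read 4.53, 4.42 and 4.37 on the Canton S arrays, 4.70, 4.82 and 4.73 on those of rbf120a, 4.49, 4.65 and 4.38 on those of wtsX1Lats and 4.51, 4.45 and 4.43 on double mutant arrays, all below the bound. The rbf120a arrays were above all the others. The change in rbf120a was 0.31 ± 0.07 (SE; limma, adjusted p = 0.0358), and the changes in wtsX1Lats and the double mutant were 0.06 and 0.02. The rbf120a call was lost in 12 of 21 alternative analyses, with adjusted p up to 0.14. The 3 measured gut markers had their highest summed level in rbf120a, at 395 to 850 against 140 to 268 elsewhere, with 1 of them above the bound and Mal-A4 below it in every array. The marker above the bound, Mal-A1, was the gut marker called in rbf120a (2.98; limma, adjusted p = 0.000718). Of 4 measured fat body markers, 1 stood above the bound and apolpp was below it in every array. Their sums were 169 to 363 in Canton S, 223 to 1063 in rbf120a, 201 to 313 in wtsX1Lats and 215 to 230 for the double mutant, and apolpp was called in rbf120a (0.57, adjusted p = 0.00769). Jon65Aiii of the gut list (7.82) and Lsp2 of the fat body list (9.76) were highest in rbf120a replicate 3, where Or47a read 4.73. The part of gut and fat body in the Or47a values was not tested. Or47a overlaps Cpr47Ea in the gene table, whose own change in rbf120a was -0.16 (adjusted p = 0.618). The next gene, Cpr47Eb, fell by 2.69, 2.98 and 3.09 in rbf120a, wtsX1Lats and the double mutant (adjusted p = 0.000686, 0.000286 and 0.000201).

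Over any difference among the 4 genotypes (moderated F test), 3 receptor genes were called (1.82%; 5.81% of all genes), namely Gr61a (adjusted p = 0.00044), Gr64a (adjusted p = 0.000217) and Or67b (adjusted p = 0.0472). Or67b, on 3L, is an odorant receptor present in larvae and adults. It lay between 4.31 and 4.61 in all arrays, and its group means were 4.41 ± 0.01 (SD, n = 3) for Canton S, 4.57 ± 0.04 for rbf120a, 4.45 ± 0.03 for wtsX1Lats and 4.36 ± 0.05 for the double mutant. All its values were below the bound, and the call was lost in 14 of 20 alternative analyses, with adjusted p up to 0.165. In the gene table Or67b overlaps CG3335 and Cyp40, whose own changes against Canton S were not called (limma, adjusted p from 0.0633 to 0.994).

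Among members not called, the largest changes against Canton S after those of Gr64f and Ir76a were 0.30 ± 0.10 (SE) for Gr93b in rbf120a, -0.30 ± 0.11 for Or43b, a receptor for fruit odours, in wtsX1Lats, and 0.23 ± 0.11 for Ir41a in the double mutant (limma, adjusted p = 0.146, 0.142 and 0.324). Leaving aside Gr61a, Gr64a, Gr64f and Ir76a, the other 161 members changed by -0.30 to 0.31 against Canton S. Their median SD over the 12 arrays was 0.099, against 0.164 for all genes, and the highest value of any of them in any array was 6.39, in Ir68a.

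The receptors were also read by role. The carbon dioxide receptors Gr21a and Gr63a, which work as a pair in the same neurons, had means over 12 arrays of 4.42 and 5.09, and neither was called. Among 10 bitter receptors, including Gr33a and Gr66a, which are found in most bitter-sensing neurons, and Gr32a, means ran from 4.14 to 5.6 with none above the bound and none called. The median changes of the bitter receptors were 0.08, 0.11 and 0.05, beside 0.0002, 0.02 and 0.002 for all genes. Gr28b, which serves warmth and light sensing in larvae, averaged 4.72 ± 0.01 (SD, n = 3) on Canton S arrays, 4.80 ± 0.04 for rbf120a, 4.85 ± 0.24 for wtsX1Lats and 4.58 ± 0.17 for the double mutant.

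Of 23 Or genes known from the larval nose, 22 were measured alone. Their means ran from 4.17 to 5.71 and none stood above the bound. Of the 22, 1, Or47a, was called in rbf120a, where 3.51% of all genes were called. The 4 pheromone receptors, including Or67d, which detects the male pheromone vaccenyl acetate, and Or47b, ran from 4.28 to 5.41 and none was called. Orco, the co-receptor that Or proteins need, is no member by its symbol. It had a mean of 4.81 over 12 arrays and changes of -0.09, -0.20 and -0.15 against Canton S, which were not called (limma, adjusted p = 0.875, 0.297 and 0.576).

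The Ir co-receptors Ir8a, Ir25a and Ir76b had means over 12 arrays between 5.01 and 5.50, and their changes against Canton S lay between -0.22 and 0.22. The temperature and humidity receptors Ir21a, Ir40a, Ir68a and Ir93a ran from 4.83 to 6.02. None of these 7 genes was called in limma. The co-receptors of both families thus stayed below the bound in every array of all 4 genotypes.

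Members read by more than 1 probe set, and shared probe sets outside the Gr64 cluster, gave no further calls. For 12 members the table held 20 further probe sets, with means from 4.04 to 4.75 and no change against Canton S larger than 0.19. The probe set of Or19a and Or19b had changes between -0.07 and 0.002, and the probe set listing Ir75d with COX6AL2 had changes between -0.09 and -0.01.

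Chemosensory genes outside the receptor families were read for comparison. Of 47 odorant-binding protein (Obp) genes, which encode small secreted carriers of odour molecules, 17 stood above the bound (36.2%, beside 57.2% of all genes). Their median level was 5.50, against 7.44 for all genes. Obp56a and Obp56d were the brightest, at 13.59 and 12.83 over 12 arrays. Against Canton S, 3 of the 47 were called in each mutant group (6.38%, beside 3.51%, 5.61% and 5.49% of all genes), 2 up and 1 down in rbf120a and 1 up and 2 down in the others. The values that follow describe single genes and not the family.

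Obp99c read 7.86, 8.30 and 8.01 in Canton S and between 6.41 and 7.16 in the mutant arrays, so the groups did not overlap, and its changes were -1.17, -1.45 and -1.58 (SE 0.15; limma, adjusted p = 0.00104, 0.000236 and 0.00011). Obp19d rose from 6.43, 6.21 and 6.41 in Canton S to between 7.06 and 8.0, by 1.27, 0.99 and 0.76 (adjusted p = 0.00202, 0.00845 and 0.031). Obp56h rose by 0.80 in rbf120a (adjusted p = 0.0298), and Obp56b changed by -0.84 in wtsX1Lats and by -1.39 in the double mutant (adjusted p = 0.026 and 0.00155).

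Of 15 other measured chemosensory genes, 6 stood above the bound (40.0%, beside 57.2% of all genes). Among these 6 was lz, which was also counted as an eye disc marker. They included ato, the proneural gene of photoreceptors and of several antennal sensilla, at 10.08, pdm3, a transcription factor that controls receptor choice in olfactory neurons, at 9.09, and the channel subunit gene ppk29. The last serves contact pheromone sensing and rose by 1.28, 0.86 and 1.25 (SE 0.18; limma, adjusted p = 0.00151, 0.0144 and 0.00156). It read 7.19, 7.04 and 7.02 in Canton S and 7.76 to 8.65 in the mutant arrays, without overlap. The changes of ato and pdm3 were not called (adjusted p from 0.229 to 0.895). Below the bound in every array were amos, a proneural gene of olfactory sensilla, with a mean of 4.99 over 12 arrays, and acj6, which acts in receptor choice, with 4.31.

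**Figure D5:**
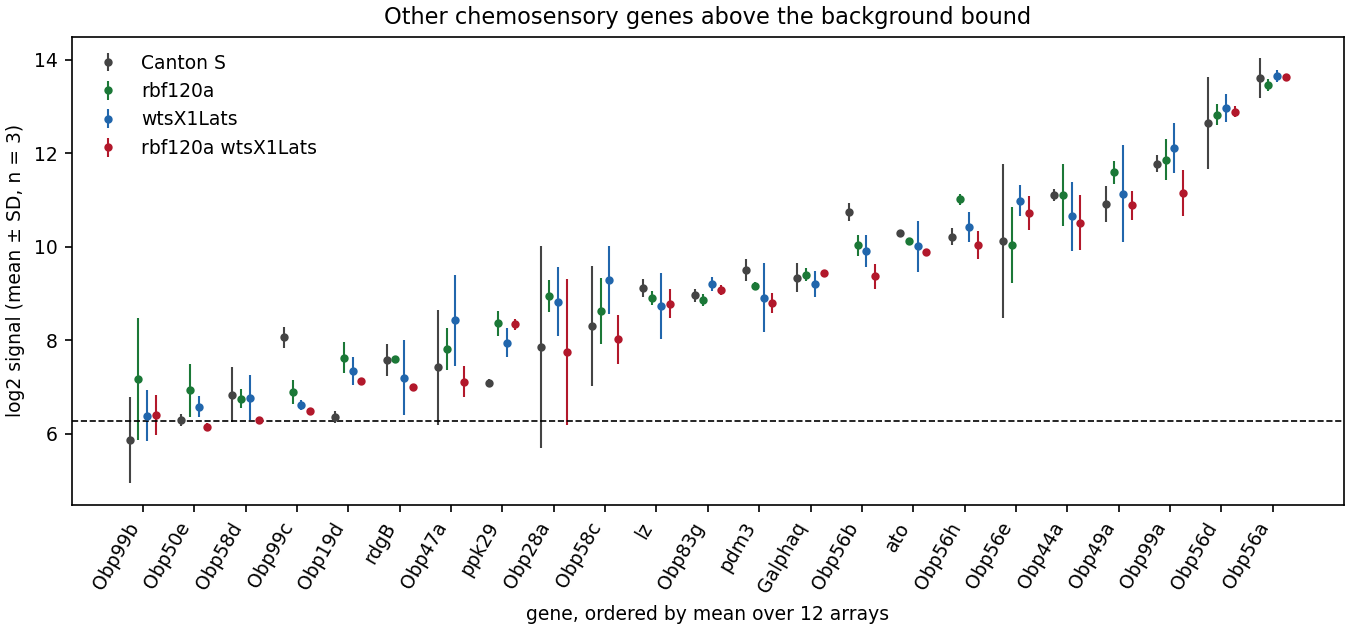
The mean log2 signal ± SD of 3 arrays is plotted for each genotype and each Obp or other chemosensory gene whose mean over 12 arrays is above the background bound of 6.27 (dashed line), ordered by level. Obp99c is lower and Obp19d and ppk29 are higher in all mutant groups than in Canton S, and Obp56a at 13.59 is the brightest.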

How the data were processed

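Expression was measured on Affymetrix arrays in 12 samples, 4 genotypes with 3 biological replicates each per the labels. The authors deposited a table of log2 values for 18952 probe sets; the scale was read from the values, and the summary and normalization methods are not given in the sources used here. Arrays have no read depth, so precision is set by how many arrays there are. Names came from the platform annotation (13647 probe sets with 1 gene, 402 with several); chromosome arms, overlaps and neighbours came from a gene table (Release 6 plus ISO1 MT), used without coordinates since the files name no build.

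Each gene kept its probe set with the highest mean. The test was limma 3.58.1 (R 4.3.3; lmFit, eBayes with a variance trend) in 1 fit of 4 group means, with Benjamini-Hochberg adjustment over 11982 genes, after a check on simulated data. Errors of changes are standard errors of that fit, which assumes that the 4 groups vary alike. The p-values set each difference of group means against the spread between these arrays, pooled over the 4 groups and moderated over all genes. The background bound is the 95th percentile of 34 reference genes; 3 of 37 symbols the pattern matched (Cp110, Cp190 and Acp65Aa, which are centrosomal or cuticle genes) were dropped after they were seen, and with them the bound is 6.96. The members and the lists were chosen with earlier results of these data known. The rule for genes to name took Gr61a and Gr64a, every member called, every member above the bound, the 3 largest uncalled changes per comparison and list members. It also took 3 measured genes on each side of called members, of which only some are named, and those of Gr61a are given by count and range. Members named outside that rule (the rest of the 15 highest, Gr59b, Gr59c) were chosen after their values were seen, and so were the neighbours of Ir76a and Or67b. A planned search of promoters for motifs was not run. Replicate numbers did not pair the samples. Alternatives were leaving out each array, a replicate block, no variance trend, array weights, other normalizations, a filter at the bound, other bounds, each pair of genotypes alone and the mean of a gene's probe sets. The labels mark the array file of rbf120a replicate 3 as repeated.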

Additional observations from a re-analysis of the deposited data

Results flagged for a closer look

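Gr61a and Gr64a were singled out by their interaction terms, which were called. For Gr61a the change with rbf120a in the wtsX1Lats background minus that in Canton S was -2.29 ± 0.32 (SE; limma, adjusted p = 0.00524), where rbf120a arrays were 2.19 above Canton S and the double mutant was 0.10 below wtsX1Lats. For Gr64a it was -1.83 ± 0.30 (adjusted p = 0.0173), where rbf120a arrays were 2.02 above Canton S and the double mutant was 0.19 above wtsX1Lats. Both genes were at background in Canton S and above the bound in the mutant groups. All 3 mutant groups stood above the same Canton S arrays by similar amounts, which by itself gives a negative term of about that size. The term thus restates that Canton S was the low group. Allele, strain background and mosaic procedure cannot be told apart there.

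The shared probe sets lie outside the table of 1 probe set per gene, and 2 of them carried a difference from Canton S. The brighter set of Gr64b and Gr64c was higher by 1.89 in rbf120a (limma over 18952 probe sets, adjusted p = 0.0116), and the set of Gr64d and Gr64e by 1.09 (adjusted p = 0.016). Neither call held with every array left out in turn.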

How the results depend on the processing

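Gr61a and Gr64a kept their calls against Canton S in all 3 mutant groups under every alternative that tested them, with adjusted p up to 0.0123 for Gr61a and 0.00974 for Gr64a. A filter at the bound left Gr64a untested. Gr61a passed that filter only through its mutant arrays, since its Canton S arrays were below the bound. Its call under the filter is thus no separate support. Gr61a rose by 2.10 to 2.33, 1.46 to 2.15 and 1.73 to 1.96 in rbf120a, wtsX1Lats and the double mutant, and Gr64a by 1.85 to 2.29, 1.96 to 2.20 and 2.15 to 2.39. With single arrays left out, receptor genes called numbered 2 to 3 in rbf120a, 2 to 3 in wtsX1Lats and 2 to 3 in the double mutant against Canton S, 0 to 1 in the double mutant against rbf120a, 0 in the other comparisons of mutant groups, 1 to 3 for the interaction and 2 to 4 for any difference; the cause of these moves was not tested. The call between the double mutant and rbf120a was Or67b, without wtsX1Lats replicate 1 or replicate 3, and the interaction kept Gr61a alone without Canton S replicate 1 or double mutant replicate 2. Without wtsX1Lats replicates 1 and 3 together, an alternative chosen after seeing the data, the counts were 2 between the double mutant and rbf120a (Or47a, Or67b) and 1 for the interaction, where Gr64a had an adjusted p of 0.0996. Array weights raised the counts to 10, 8 and 10 against Canton S, 2 between the double mutant and rbf120a, 1 between wtsX1Lats and rbf120a (Gr61a, -0.62, adjusted p = 0.0439), 5 for the interaction and 10 for any difference, while 12.1%, 16.0%, 19.9%, 4.11%, 7.51%, 3.22% and 22.5% of all genes were called with the same weights; the cause was not tested. The weights were uneven in 2 groups. Canton S replicate 1 had 3.84 against 0.376 and 0.673 for replicates 2 and 3. For wtsX1Lats, replicate 2 had 2.58 against 0.222 and 0.27 for replicates 1 and 3. The filter at the bound left 6859 genes and gave 1 receptor gene in rbf120a, 1 in wtsX1Lats, 1 for the interaction and 1 for any difference, since Gr64a was not tested there. Between the double mutant and rbf120a, 1 was called with these genotypes alone (Or47a) and 1 with the mean of a gene's probe sets (Or67b). With the highest reference gene as the bound (7.31), 1 receptor gene stood above it, with the 3 dropped reference symbols kept (6.96, an alternative chosen after seeing the data) 1 did, and with the median of all probe sets (5.79), 5 did; without single arrays there were 2 to 3. With the replicate number as a block, the counts called were 3, 2 and 2 against Canton S, 2 for the interaction and 2 for any difference, where Or67b was lost; correlations of same-numbered arrays ran from -0.298 to 0.311, so the numbers did not pair the samples. Signals near the bound limit what can be read of the other receptor genes.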

Other observations

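Over the 12 arrays, the genes whose log2 signals followed Gr61a most closely by Pearson's r were LBR (0.958), CG7328 (0.954) and RpL27 (0.951), and for Gr64a they were mtrm (0.978), Zmynd10 (0.973) and LBR (0.969). LBR, the lamin B receptor of the nuclear envelope, changed by 2.76, 2.79 and 2.91 on the log2 scale against Canton S in rbf120a, wtsX1Lats and the double mutant. The arrays fall into Canton S and mutant arrays for these genes, so the coefficients describe that division and carry no p.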
